A study of Caenorhabditis elegans with 6 samples.

Results

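The astacin metalloproteases of the nematode Caenorhabditis elegans are the subject here, taken as every gene of the deposited table whose symbol is nas (nematode astacin) followed by a number. The rule found 35 of the 25212 genes. Their RNA levels were measured in 6 poly(A)-selected libraries of whole animals of the wild-type strain N2. The ASP group (3 libraries) was given aspartame, with a dose of 100 µM in the series' design text, and the other group (3 libraries) is labelled Control, with nothing further said of it. Libraries carry the replicate numbers 1 to 3 in both groups. The labels give no age or larval stage and leave unsaid whether animals were on Pseudomonas aeruginosa before RNA was taken. They also leave unsaid what a replicate number stands for and whether replicates were separate cultures. The p-values therefore cover only the spread among these 6 libraries, part of which may be technical.

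Astacins are secreted zinc endopeptidases that are made as inactive precursors and activated by removal of a propeptide. Nematodes have many more of them than mammals. In C. elegans they act mainly outside cells, where they digest the old cuticle during molting, trim procollagens, shape the cuticle-lined pharynx and open the eggshell at hatching. Many of their RNAs are made in the epidermis, the pharynx and other tissues that border the cuticle, and many follow the molting cycle.

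The members were a family of low to moderate RNA abundance, and their levels differed far more between replicate numbers than between aspartame and control. In the libraries numbered 3 of either group, 11 of 25 tested members were higher and 2 lower than in those numbered 2, beside 12.1% higher and 12.2% lower of all tested genes. Between ASP and Control no member passed the test. Levels are in FPKM, a length- and depth-scaled fragment abundance, as deposited. A gene passes, or is called, at a Benjamini-Hochberg adjusted p under 0.05 in edgeR over the 13790 genes whose mean reached 1 FPKM.

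Total counts lay between 53558562 and 63581942 per library. Markers of the main tissues of a worm were present, with summed levels of 2044 to 3825 FPKM for 12 epidermal genes, 3933 to 4370 for 10 intestinal genes and 130.9 to 180.2 for 12 pharyngeal genes. Libraries of the same number deviated from their group means together, and ASP 3 and Control 3 stood apart from the other 4. Stage-linked lists moved with them. Summed levels of 23 molting factors were 689 to 785 FPKM in the libraries numbered 3, against 268 to 423 in the others. Summed levels of the 6 vitellogenin (yolk protein) genes were 922 to 999, against 2547 to 3108. Fewer cells of a type and less RNA per cell cannot be told apart in whole-animal RNA, and the part of stage or tissue makeup in the results below was not tested.

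Of the 35 members, 9 had a mean of at least 10 FPKM, 5 lay between 5 and 10, 11 between 1 and 5, and 10 under 1. The median member stood at 3.44 FPKM, against 6.38 for the 18596 mRNA genes of the table. The 8 most abundant members made up 66.3% of the family's summed mean. Summed over all members, the family stood at 228.2, 236.2 and 283.4 FPKM in ASP 1, 2 and 3, and at 224.9, 228.7 and 281.1 in Control 1, 2 and 3. The sum was thus highest in the libraries numbered 3 of both groups, and ASP and Control overlapped.

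**Figure D1:**
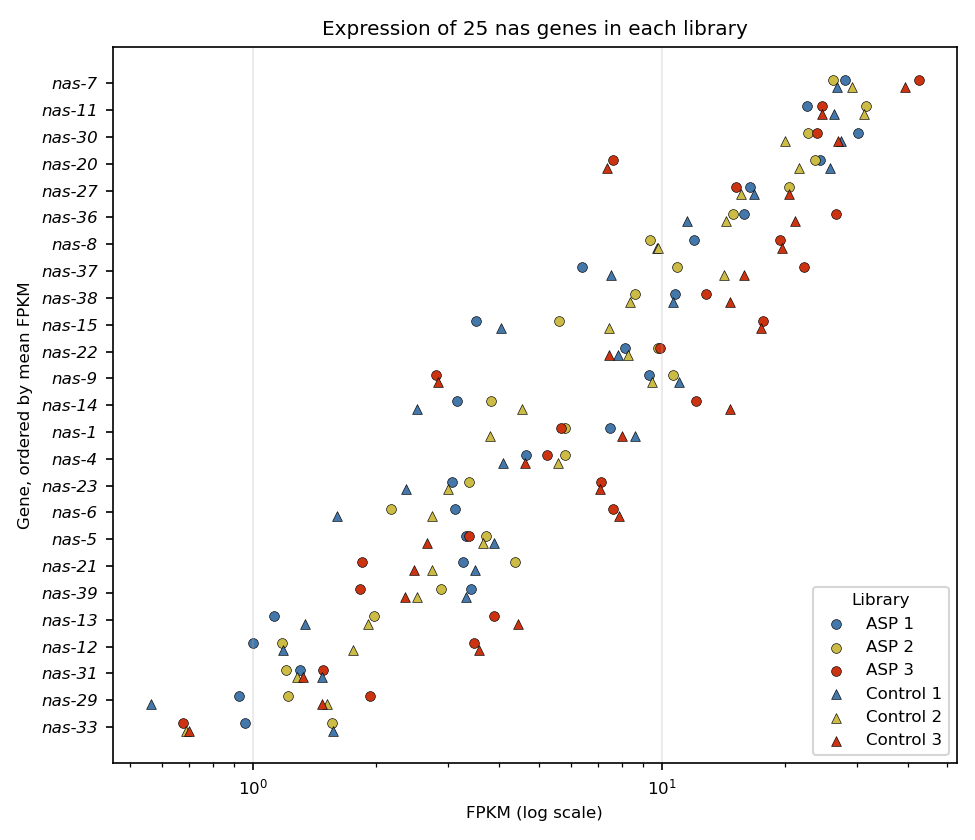
FPKM (log axis) of the 25 nas genes whose mean reached 1 FPKM, ordered by mean, with one point per library (circles ASP, triangles Control, colours for the replicate number). The red points of number 3 lie to the right of all others for 11 genes and to the left for 4, while circles and triangles of one colour mostly lie close together.

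The pharyngeal members come first. The deposited annotation gives nas-5, nas-6 and nas-7 a term for pharyngeal pumping or pharynx development, and nas-6 and nas-7 are known to be needed for the pharyngeal grinder, the cuticular plates that crush bacteria. The most abundant member was nas-7 (gene ID 182368, II 7400545 to 7402725), with 28.05, 26.2 and 42.5 FPKM in ASP 1, 2 and 3, against 26.8, 29.1 and 39.4 in Control 1, 2 and 3. Both libraries numbered 3 were above the other 4, which lay close together. The difference of number 3 from number 2 was log2 0.66 (SE 0.09, 1.58-fold, adjusted p 0.0015), beside a background of 24.3% of all tested genes called in that comparison.

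Its partner nas-6 (181796, IV 17486842 to 17490779) was less abundant and varied more. It had 3.13, 2.18 and 7.59 FPKM in ASP 1, 2 and 3, against 1.61, 2.74 and 7.85 in Control 1, 2 and 3. Both libraries numbered 3 were again the highest, by log2 1.74 over number 2 (SE 0.29, 3.33-fold, adjusted p 0.0041). nas-5 did not pass and had 2.67 to 3.89 FPKM over the 6 libraries, with the lowest value in Control 3. Of 9 tested genes in the list of pharyngeal markers, 3 were higher and 0 lower in number 3 than in number 2 (median log2 0.28). Of all tested genes, 12.1% were higher and 12.2% lower. Another 3 listed markers had means under 1 FPKM and were not tested.

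Among the members with described roles in molting, nas-37 (181208, X 9944844 to 9949063), whose protease digests the old cuticle at ecdysis, had 6.39, 10.9 and 22.3 FPKM in ASP 1, 2 and 3, against 7.54, 14.2 and 15.9 in Control 1, 2 and 3. Each number stood apart from the next in both groups, although Control 2 and Control 3 were close. It was 1 of 2 members that passed in number 2 against number 1, at log2 0.85 (SE 0.18, 1.81-fold, adjusted p 0.0369), where 3.84% of all tested genes were called. Number 3 was higher than number 2 by log2 0.70 (SE 0.17, adjusted p 0.0211), and higher than number 1 by log2 1.56 (SE 0.18, adjusted p 0.00033). In the last comparison 37.5% of all tested genes were called.

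nas-36 (172506, I 7527224 to 7531715), also needed to shed the old cuticle, had 15.9, 14.96 and 26.7 FPKM in ASP 1, 2 and 3, against 11.6, 14.4 and 21.2 in Control 1, 2 and 3. Numbers 1 and 2 were close and number 3 was higher, by log2 0.79 over number 2 (SE 0.11, 1.73-fold, adjusted p 0.00131). nas-38 (180407, X 558157 to 563708), which is known to influence sleep during the molt, had 10.8, 8.62 and 12.9 FPKM in the ASP libraries and 10.7, 8.36 and 14.7 in the Control libraries, in the order of the numbers. Both libraries numbered 2 were the lowest. Number 3 passed against number 2 (log2 0.79, SE 0.12, adjusted p 0.00214) and by less against number 1 (log2 0.46, SE 0.12, adjusted p 0.0154).

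The deposited annotation gives a molting cycle term to 18 members that have no pharynx term, nas-36, nas-37 and nas-38 among them, and 10 of the 18 were tested. In number 3 against number 2, 3 of these were higher, 1 was lower and 6 did not pass (40% called, median log2 0.17), beside 24.3% of all tested genes called. Of the 12 tested members with neither term, 6 were higher, 1 was lower and 5 did not pass (58.3% called, median 0.86). The median over all tested genes was −0.00, and over all 25 tested members 0.39. The difference between the annotation groups was not tested.

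The next members have neither term. nas-15 (180426, X 777721 to 780533) had 3.51, 5.61 and 17.7 FPKM in ASP 1, 2 and 3, against 4.04, 7.44 and 17.5 in Control 1, 2 and 3. The 3 numbers did not overlap. ASP and Control lay close together in numbers 1 and 3 and less so in number 2. It was higher in number 3 than in number 2 by log2 1.54 (SE 0.13, 2.90-fold, adjusted p 0.000132) and than in number 1 by log2 2.33 (SE 0.13, 5.01-fold, adjusted p 1.02e-05). Beside nas-37 it was the other member called in number 2 against number 1 (log2 0.79, SE 0.13, 1.73-fold, adjusted p 0.0146).

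The calls of nas-15 and nas-37 in number 2 against number 1 ended when ASP 2 or Control 2 was left out. Such fits hold a lone library of number 2, and the share of all tested genes called fell in them too. Both log2 values stayed above 0 in these fits (0.62 to 1.07).

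nas-14 (184247, IV 13170541 to 13174144) had 3.16, 3.82 and 12.1 FPKM in ASP 1, 2 and 3, against 2.52, 4.55 and 14.7 in Control 1, 2 and 3. Its highest library was 5.81 times its lowest, the widest span of the 25 tested members. Number 3 was above number 2 by log2 1.77 (SE 0.18, 3.42-fold, adjusted p 0.00030). nas-8 (183207, IV 7114899 to 7119926) had 12.03, 9.38 and 19.5 FPKM in ASP 1, 2 and 3, against 9.75, 9.82 and 19.7 in Control 1, 2 and 3. Its libraries numbered 1 and 2 lay together and those numbered 3 well above them, with a log2 difference of 1.13 from number 2 (SE 0.13, 2.18-fold, adjusted p 0.000551).

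nas-23, nas-12 and nas-13 showed the same order at lower levels. nas-23 (3565992, II 7491267 to 7493699) had 7.09 FPKM in both ASP 3 and Control 3, against 2.37 to 3.37 in the other 4 libraries (log2 1.25 for number 3 against number 2, SE 0.18, adjusted p 0.00194). For nas-13 (185492, X 15425099 to 15428253) the libraries numbered 3 stood at 3.90 and 4.45 FPKM, against 1.13 to 1.98 (log2 1.18, SE 0.23, adjusted p 0.00709). For nas-12 (182848, IV 10224023 to 10226387) they stood at 3.47 and 3.58, against 1.003 to 1.76 (log2 1.37, SE 0.27, adjusted p 0.0084). In all 3 genes the number 3 libraries lay above all others, as they did for 11 of the 25 tested members, beside 20.4% of all tested genes.

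Only nas-9 and nas-20 passed in the opposite direction, in number 3 against both other numbers. nas-9 (178875, V 4836027 to 4840013) had 9.31, 10.6 and 2.81 FPKM in ASP 1, 2 and 3, against 11.02, 9.45 and 2.84 in Control 1, 2 and 3. Numbers 1 and 2 overlapped, and both libraries numbered 3 were far below them, by log2 −1.73 against number 2 (SE 0.16, 3.33-fold, adjusted p 0.000208). nas-20 (188420, V 11470925 to 11472309) had 24.3, 23.7 and 7.62 FPKM in the ASP libraries, and 25.8, 21.6 and 7.35 in the Control libraries, in the order of the numbers. ASP and Control of one number were nearly equal, and number 3 was lower than number 2 by log2 −1.50 (SE 0.12, 2.84-fold, adjusted p 0.000116). The libraries numbered 3 were below all others for 4 of the 25 tested members, beside 35% of all tested genes. The other 2 were nas-21, with 1.85 and 2.48 against 2.74 to 4.38 FPKM, and nas-39, with 1.83 and 2.36 against 2.52 to 3.41. Such counts use FPKM as deposited, in which 20.4% of all tested genes were above and 35% below. The edgeR test scales libraries otherwise, with 12.1% called higher and 12.2% lower in number 3 against number 2.

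nas-39 (3565986, X 16456927 to 16471333), the member most like the tolloid and BMP-1 proteases of other animals, did not pass in any comparison (adjusted p 0.0518 in number 3 against number 1, log2 −0.58, SE 0.20). In the Ensembl annotation it has 22 exons and a coding length of 2784 bp, the most and the longest of the 35. The median coding length was 1344 bp. Exons of nas-39 share 7.93% of their length with another gene on the same strand, F38E9.1, so the value of nas-39 is uncertain.

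**Figure D2:**
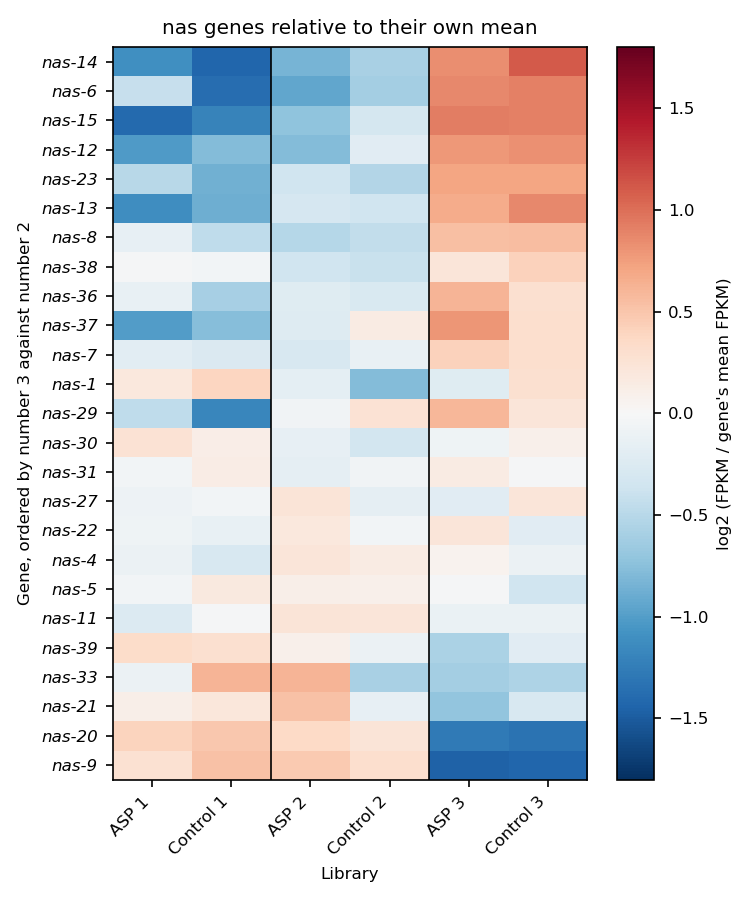
Each cell is the log2 ratio of a library's FPKM to the gene's mean over the 6 libraries, for the 25 tested nas genes (rows, ordered by the difference of number 3 from number 2) and the 6 libraries (columns, in pairs of one number). The paired columns of number 3 are red for the genes at the top, such as nas-14 and nas-6, and blue for nas-20 and nas-9 at the bottom.

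Other members spanned a narrow range. nas-31 had 1.21 to 1.49 FPKM over the 6 libraries, a ratio of highest to lowest of 1.23. For nas-22, nas-27, nas-11, nas-4 and nas-5 the ratio was 1.34 to 1.46. nas-11 and nas-27 are among the most abundant members. nas-11 (180938, X 6713577 to 6716357) had 22.7, 31.6 and 24.7 FPKM in ASP 1, 2 and 3, against 26.4, 31.3 and 24.6 in Control 1, 2 and 3. Both libraries numbered 2 were its highest, but the difference from number 1 did not pass (log2 0.37, SE 0.10, adjusted p 0.0823). nas-27 (188809, II 1175925 to 1179323) had 16.5, 20.5 and 15.2 FPKM in ASP 1, 2 and 3, against 16.8, 15.6 and 20.4 in Control 1, 2 and 3. Its highest values were ASP 2 and Control 3, so that neither groups nor numbers separated.

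nas-30 (190803, I 938483 to 947710), among the most abundant members, had 30.1, 22.8 and 23.97 FPKM in ASP 1, 2 and 3, against 27.4, 20.1 and 26.97 in Control 1, 2 and 3. It was lower in number 2 than in number 1 in both groups, without passing (log2 −0.42, SE 0.11, adjusted p 0.0878).

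Over the 25 tested members, the replicate number took a median of 87.9% of the sum of squares of log2(FPKM + 1) and the group 0.877%. Over all 13790 tested genes the medians were 76.7% and 3.59%. Number divides the libraries into more classes than group does, so its expected share is larger even without any effect. Number took more than 50% in 22 members, or 88%, beside 74.5% of all tested genes. The exceptions were nas-22, nas-27 and nas-33.

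In number 3 against number 1, 12 of the 25 tested members were higher and 2 lower, or 56% called, beside 37.5% of all tested genes (18.3% higher and 19.1% lower). In number 3 against number 2, 11 were higher and 2 lower, or 52%, beside 24.3% (12.1% higher and 12.2% lower). In number 2 against number 1, 2 were higher and 0 lower, or 8%, beside 3.84% (2.7% higher and 1.14% lower). These comparisons share libraries. If the libraries of a number share a source, the p-values cover only the spread within numbers, not that between sources. nas-29 passed against number 1 (log2 1.30, SE 0.32, adjusted p 0.0133) and had log2 0.39 (SE 0.31) against number 2. Each number holds 1 ASP and 1 Control library, and whether the response to aspartame differs between numbers cannot be tested with 1 library of each kind.

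**Figure D3:**
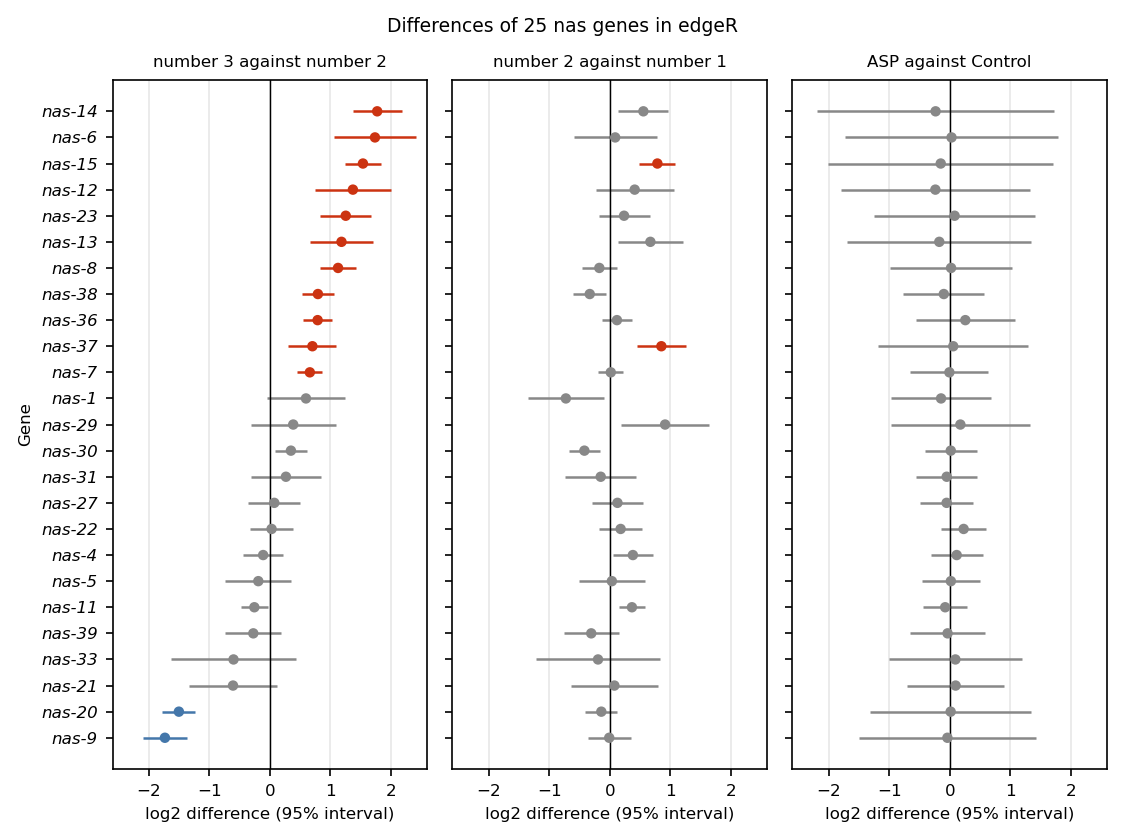
Log2 differences (points) with 95% intervals (lines) of the 25 tested nas genes from edgeR, for number 3 against number 2, number 2 against number 1, and ASP against Control. Red marks genes called higher (11, 2 and 0 in the 3 panels), blue genes called lower (2, 0 and 0) and grey genes that did not pass.

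The comparison of ASP with Control asks whether aspartame changed the RNA of these proteases. In edgeR 0 of 25 tested members passed, and 0 had an unadjusted p under 0.05. Of all tested genes 0% were called and 62 (0.45%) had an unadjusted p under 0.05. DESeq2 and limma on log2(FPKM + 1) also called 0 members, each with 0 at an unadjusted p under 0.05. These fits have no term for the replicate number, so differences between numbers enter their error and make small p-values rarer. With the number as a block, edgeR called 0 members, and 1 had an unadjusted p under 0.05. Without the block, members' log2 differences ran from −0.24 to 0.26 (13 above 0, 12 below, median 0.02), and over all tested genes the median was 0.00. The median 95% interval of a member reached log2 0.82 to either side, and log2 0.33 with the replicate number as a block. No tested member had ASP and Control ranges apart, beside 3.39% of all tested genes.

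The 5 members with the smallest p in that comparison did not pass. nas-22 (188423, V 11474699 to 11478007) had 8.14, 9.80 and 9.93 FPKM in ASP 1, 2 and 3, against 7.80, 8.27 and 7.43 in Control 1, 2 and 3. ASP was above Control within each number, by log2 0.06, 0.25 and 0.42, and the ranges overlapped through ASP 1 and Control 2. Group means were 9.29 ± 1.0 and 7.83 ± 0.419 FPKM (SD, n = 3), with a log2 difference of 0.23 (SE 0.16, 95% interval −0.14 to 0.61). It was the single tested member for which group took a larger share of the sum of squares than number (57.9% against 21.03%).

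nas-36 was above Control within each number too (log2 0.46, 0.06 and 0.33), and its group means were 19.2 ± 6.51 and 15.7 ± 4.95 FPKM (SD, n = 3, log2 0.26, SE 0.34, 95% interval −0.56 to 1.08). Without ASP 3 its log2 was −0.084. With the replicate number as a block its log2 was 0.26 (95% interval 0.06 to 0.46, adjusted p 0.997 in edgeR). It was the 1 member of 25 with an unadjusted p under 0.05 in that fit (4%), beside 2.68% of all tested genes. For nas-4 the group means were 5.23 ± 0.564 FPKM with aspartame and 4.77 ± 0.739 without (log2 0.12, SE 0.18), and ASP was above Control within each number (log2 0.18, 0.06 and 0.18). With 1 library left out its log2 ran from 0.0056, without Control 1, to 0.21, without Control 2. The log2 differences of nas-11 (−0.07, SE 0.15) and nas-1 (−0.14, SE 0.34) turned above 0 when 1 library was left out, ASP 1 for nas-11 (0.036) and Control 1 or Control 3 for nas-1 (0.029 and 0.042). Exons of nas-4 share 18.8% of their length with another gene on the same strand, C05D11.5, so its value is uncertain.

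Position on the chromosomes was also recorded. The members are spread over all 6 nuclear chromosomes, with 12 on V, 8 on X, 5 on II, 4 on IV and 3 each on I and III. Of the 12 on V, 5 were tested, and of the 8 on X, 7. Chromosome V holds a pair of gene clusters of the family, separated by 68.2 kb and 24 other genes. The first contains nas-16, nas-18, nas-17 and nas-19 (V 11392320 to 11402710), and the second nas-20, nas-21 and nas-22 (V 11470925 to 11478007).

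Every gene of the first cluster was near or at 0. nas-16 was listed above 0 in ASP 3 alone (0.0520 FPKM) and nas-18 in ASP 2 alone (0.0995 FPKM). The highest value in the cluster was 0.355 FPKM, for nas-17 in ASP 1. The second cluster was expressed, with 7.35 to 25.8 FPKM for nas-20, 1.85 to 4.38 for nas-21 and 7.43 to 9.93 for nas-22. nas-20 and nas-21 lie head to head, 254 bp apart, and nas-22 follows nas-21 on the same strand after 799 bp. In number 3 against number 2, nas-20 was lower, nas-21 had both libraries numbered 3 below the other 4 but did not pass (log2 −0.61, SE 0.32, adjusted p 0.201), and nas-22 did not pass (log2 0.03, SE 0.16). Whether these differences differ from each other was not tested.

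**Figure D4:**
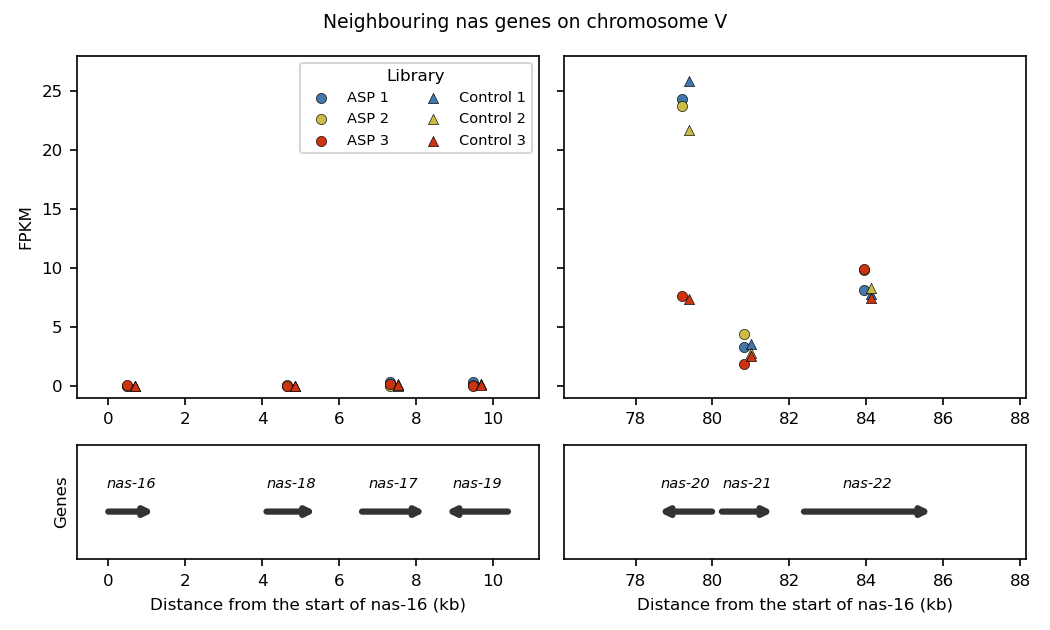
FPKM of the 7 nas genes in the pair of clusters on chromosome V (top, one point per library) above their positions and directions (bottom arrows), as distance in kb from the start of nas-16. All points of the left cluster lie under 0.4 FPKM; on the right nas-20 splits into 4 libraries at 21.6 to 25.8 FPKM and the libraries numbered 3 at 7.35 and 7.62.

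The 10 members under the filter had at most 121 counts in a library. Just inside it were nas-33 (mean 1.02 FPKM), with 0.956, 1.56 and 0.674 in the ASP libraries and 1.57, 0.686 and 0.699 in the Control libraries, and nas-29 (mean 1.27 FPKM), with 0.926, 1.22 and 1.93 in the ASP libraries and 0.564, 1.52 and 1.47 in the Control libraries. Just outside were nas-25 (mean 0.824 FPKM), with 0.873, 0.988 and 0.230 in the ASP libraries and 1.13, 1.22 and 0.505 in the Control libraries, and nas-32 (mean 0.609 FPKM), with 0.377 to 0.800. nas-25 and nas-24 (0 to 1.26 FPKM) had both libraries numbered 3 below the other 4, so the filter left out members that were low there. nas-28 had 0.191 to 0.640 FPKM. The remaining members under the filter outside chromosome V's first cluster, nas-10 and nas-3, had means of 0.0791 and 0.00877 FPKM, and 7 members in all were listed at 0 in at least 1 library.

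Astacins that go by other symbols were outside the rule. toh-1, annotated in the table as nas-26, had 30.7 to 37.3 FPKM in 5 libraries and 26.2 in Control 2, a mean of 32.6, close to the level of nas-7. dpy-31, the procollagen C-proteinase that trims the cuticle collagen SQT-3, had 12.6 to 15.8 FPKM. Neither passed in any of the 4 comparisons, and the log2 of number 3 against number 2 was 0.31 (SE 0.14) for toh-1 and 0.09 (SE 0.10) for dpy-31. hch-1, the hatching protease annotated as nas-34, was listed at 0 in 5 libraries and at 0.0318 FPKM in Control 2.

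Genes that work beside astacins in the cuticle differed between the numbers as well. Of all tested genes, 24.3% were called in number 3 against number 2. The share was 37.5% in number 3 against number 1 and 3.84% in number 2 against number 1. Of 23 molting factors, 13 were higher and 0 lower in number 3 than in number 2 (median log2 0.63), 18 higher and 1 lower in number 3 than in number 1 (median 1.501), and 10 higher and 0 lower in number 2 than in number 1 (median 0.67). mlt-10, a secreted protein needed for molting, had 18.9, 36.9 and 101.0 FPKM in ASP 1, 2 and 3, against 18.8, 42.5 and 91.3 in Control 1, 2 and 3. As in nas-15, its 3 numbers did not overlap in either group. Of 11 collagen processing genes and substrates, 8 were higher and 0 lower in number 3 than in number 2 (median 0.98). sqt-3, the collagen cut by DPY-31, had 115.3, 209.4 and 686.1 FPKM in the ASP libraries and 140.4, 254.5 and 645.0 in the Control libraries, in the order of the numbers.

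Other extracellular metalloproteases were split, with 5 of 17 higher and 5 lower in number 3 than in number 2 (median 0.22). Of all tested genes, 12.1% were higher and 12.2% lower. The ADAMTS gene adt-1 was higher (log2 1.16, SE 0.11, adjusted p 0.000195) and the matrix metalloprotease gene zmp-3 lower (log2 −1.99, SE 0.19, adjusted p 0.000225). This list shares adt-2 with the molting list. Of 13 protease inhibitors, 2 were higher and 5 lower (median −0.48). The 2 were the Kunitz-type inhibitors bli-5 (log2 0.87, SE 0.17, adjusted p 0.0075) and mlt-11 (log2 0.97, SE 0.24, adjusted p 0.0198), which are also on the molting list, and the serpin srp-2 was lower (log2 −2.29, SE 0.16, adjusted p 8.1e-05). Between ASP and Control, 0 genes of these lists passed in edgeR, with medians of 0.06 for molting factors, −0.05 for collagen processing, −0.00 for other metalloproteases and −0.01 for inhibitors.

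Markers of other tissues in number 3 against number 2 are given for comparison, beside 12.1% higher and 12.2% lower of all tested genes. Of 12 epidermal genes 9 were higher and 2 lower (median log2 0.95), of 10 intestinal genes 1 was higher and 2 lower (−0.21), of 8 body wall muscle genes 3 were higher and 0 lower (0.32), and of 9 neuronal genes 0 passed. All 6 vitellogenins were lower (−1.39), as were 13 of 14 oocyte and eggshell genes (−0.77), and of 17 sperm genes 3 were higher and 0 lower (0.27). Some collagens are on both the epidermal list and the collagen processing list.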

How the data were processed

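The authors deposited 1 table that holds, for each library, FPKM values and estimated counts by gene. The counts are whole numbers and were used as deposited. Per the submitters' processing notes, CASAVA 1.4 was among the tools and the builds listed are of the mouse (mm9, mm10), but the chromosome accessions are those of C. elegans WBcel235, and all 35 members have the RefSeq and Ensembl 115 coordinates of that build. No aligner or counter is named, and strand handling is not given in the sources used here. RefSeq lists 37 nas symbols, of which nas-2 and nas-40 were not analysed here.

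Genes whose mean reached 1 FPKM (13790) were tested with edgeR 4.0.16 (quasi-likelihood, TMM, R 4.3.3) and Benjamini-Hochberg adjustment over all of them. The plan was edgeR on estimated counts where the table held them. ASP was compared with Control without a block, and replicate numbers with the group as a term. SE is the log2 difference divided by the root of F. Alternatives were median-of-ratios scaling, other filters, DESeq2 1.42.0, limma 3.58.1 on log2(FPKM + 1) or log2(FPKM + 0.1), and each library left out. The tests between numbers, and that of ASP against Control with the replicate number as a block, were checked on simulated data. The test of ASP against Control without a block was not.

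The groups share replicate numbers. Deviations from group means correlated over genes at 0.811, 0.524 and 0.822 within numbers 1, 2 and 3, so the numbers were read as pairing the libraries, from the data and not the labels. Members, lists and the comparisons between numbers were chosen with earlier results of these data known. Values in every library were given for members with described roles, the 8 most abundant, the 5 with the smallest p in ASP against Control, up to 8 called per contrast of numbers and those beside the filter. mlt-10, sqt-3 and the genes named from lists were taken for their role or a small p. Of exons, 9.17% of nas-11 lie in a gene on the opposite strand, smf-2 (mean 0.0956 FPKM). For nas-39, 7.93% lie in a gene on the same strand, F38E9.1 (mean 4.83 FPKM).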

Additional observations from a re-analysis of the deposited data

How the results depend on the processing

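For ASP against Control, 0 members were called under every alternative, with each library left out (0 to 0) and with the replicate number as a block (0 of 25, median log2 −0.01). The block changed no call. In number 3 against number 1, 14 members were called, 12 to 15 with 1 library left out, 12 with no filter and 9 of the 14 that passed a minimum of 5 FPKM, a setting that tests fewer genes. In number 3 against number 2, 13 were called, 10 to 14 with 1 library left out and 11 with no filter. In number 2 against number 1, 2 were called, 7 without ASP 3 and 6 without Control 3. With no filter, limma on log2(FPKM + 1) or limma on log2(FPKM + 0.1), 0 were called, the cause of which was not tested. The share of all genes called in this comparison moved the same way. It was 3.84% in the main fit, 0.036% with no filter, and 2.15% and 2.20% with limma. Without ASP 3 it was 11.2%, and without Control 3 10.96%. These counts thus followed the change over all genes and were not particular to the family. With no filter the share also fell in number 3 against number 1 (37.5% to 12.4%) and against number 2 (24.3% to 4.74%). Of the named members' log2 differences, 281 kept direction and side of the threshold, 10 lost their call, all for nas-15 and nas-37 in number 2 against number 1, and 4 changed sign, all in ASP against Control with 1 library left out. With 1 library left out, these log2 differences ran from −0.23 to 0.036 for nas-11, from −0.084 to 0.59 for nas-36 and from −0.45 to 0.042 for nas-1. Fits with 1 library left out hold a number or group with fewer libraries, assumed to vary like the others. With a lone library of one number in a group, differences between numbers enter ASP against Control.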
